A study of Osmanthus fragrans with 6 samples.

Results

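The transcripts described here come from petals of sweet osmanthus, Osmanthus fragrans var. semperflorens. In flowering round 1 they were higher at late full bloom than at full bloom and abscission. They were chosen by their measured levels in the libraries of those 3 stages, and initial bloom took no part. The level in late full bloom had to be at least 3 times that in full bloom and at least 3 times that in abscission, and at least 5 CPM (the count divided by the total of its library, times 1000000). A count of at least 1 was also required in both full bloom and abscission. Of 96596 assembled transcripts, 105 met the rule. Another 14 met the fold and level requirements but had no count in at least 1 of full bloom and abscission, and were left out by the rule.

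The study followed flower colour and carotenoid genes over flowering in petals of trees grown outdoors, with no treatment, collected in September. In round 1, petals were taken at initial bloom (initial 1), full bloom (full 1), late full bloom (late full 1) and abscission (abscission 1). In round 2 they were taken at initial bloom (initial 2) and full bloom (full 2). All libraries were of the same variety, and each pooled 5 replicates, so every stage was 1 library. No spread between petals or trees was measured, so no difference has a replicate check, no p-value is given, and the 95% intervals cover counting error only. Depth was 107466 counts in initial 1 and 17826689 to 39119103 in the other 5 libraries, so 1 count stood for 9.31 CPM in initial 1 and for 0.0256 to 0.0561 CPM elsewhere. The deposited IDs are not paired with gene names or sequences, so functions, gene lists and petal markers were not analysed here.

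Petals of sweet osmanthus open, emit scent made largely of terpenes and of carotenoid cleavage products, and then drop within days. In petals generally, full bloom is followed by senescence, in which cell contents are broken down and exported before a layer of cells at the base separates. A transcript that is high at one stage and low on both sides of it has a transient course, in contrast with transcripts that build up or decline through the life of the flower. In RNA from whole petals, fewer cells of a type and less RNA per cell cannot be told apart.

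Most of the 105 peaks were modest, and a few were extreme. The height of a peak, taken as the level in late full 1 over the higher of full 1 and abscission 1, had a median of 4.36-fold, with quartiles of 3.37 and 6.46. It ran from 3.01-fold to 331-fold. For 67 members (63.8%) the height was under 5-fold, for 24 it was 5-fold to under 10-fold, and for 14 it was 10-fold or more. These values chose the members and are a description. The share of the 3-library sum found in late full 1 was 61.4% at the lowest, 74.7% at the median and 99.5% at the highest.

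Such a course was uncommon among transcripts that could have shown it. Of 13685 transcripts with at least 5 CPM in late full 1 and a count in both flanking libraries, called the eligible transcripts below, the 105 members were 0.767%. The median eligible transcript stood in late full 1 at 0.790 times the higher of its flanks, and 21.5% were higher in late full 1 than in both. The edge of the rule was not a natural gap. The member just inside the fold had 81.4 CPM in late full 1 between flanks of 9.55 (full 1) and 27.04 (abscission 1), a height of 3.01-fold, while the transcript just outside had 5.86 CPM between flanks of 1.41 and 1.96, a height of 2.99-fold. The member just inside the level requirement had 5.09 CPM in late full 1 and the transcript just outside had 4.86 CPM.

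**Figure D1:**
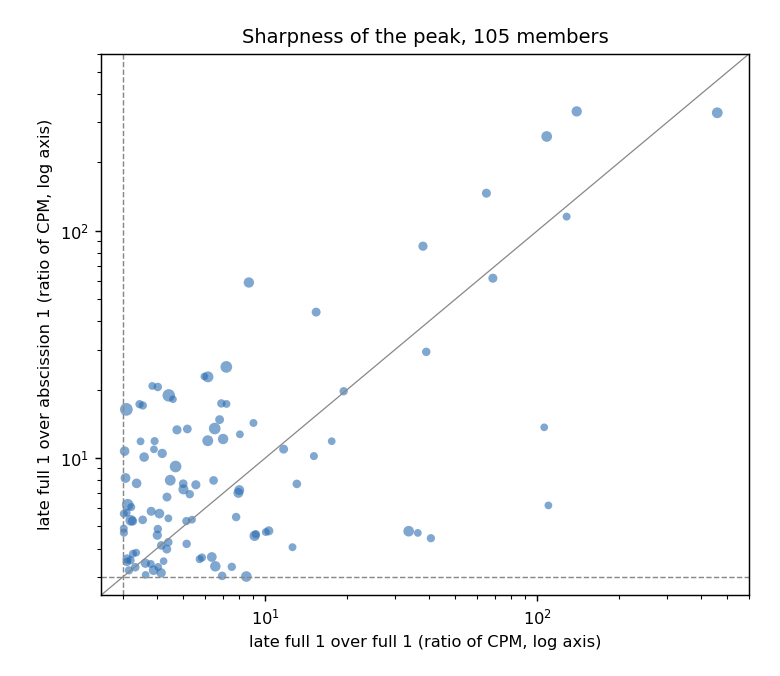
Each point is 1 of the 105 members, with the ratio of CPM in late full 1 to full 1 on the horizontal log axis and to abscission 1 on the vertical log axis; larger points have more CPM in late full 1, dashed lines mark the 3-fold limits and the diagonal marks equal flanks. Most points lie near the limits (67 members have a height under 5-fold), and 14 members are at least 10-fold over both flanks.

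The flanks were often alike. Full 1 and abscission 1 were within 2-fold of each other for 63 members, full 1 was at least 2-fold over abscission 1 for 30, and abscission 1 was at least 2-fold over full 1 for 12. By CPM on total counts, full 1 was the higher flank for 64 members (61.0%), against 71.6% of the eligible transcripts. The factors of edgeR's TMM scaling were 1.06 for full 1 and 0.711 for abscission 1, so that scaling would raise abscission 1 relative to full 1. The split by higher flank, here and below, was not redone with it and may change for members with close flanks. The median ratio of late full 1 to full 1 was 5.13, with a range of 3.02 to 459, and that of late full 1 to abscission 1 was 6.94, with a range of 3.01 to 336. By level, 48 members had 5 to under 10 CPM in late full 1, 31 had 10 to under 30, 18 had 30 to under 100, and 8 had 100 or more. The medians over the members were 11.1 CPM in late full 1, 2.17 in full 1 and 1.85 in abscission 1.

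The 2 sharpest peaks with at least 200 counts in late full 1 were c131134_g1_i1 and c159176_g1_i1. Transcript c131134_g1_i1 had 4 counts in full 1 (0.202 CPM), 2406 in late full 1 (92.8 CPM) and 5 in abscission 1 (0.280 CPM). In round 2 it had 1230 counts in initial 2 (31.4 CPM) and 6 in full 2 (0.312 CPM), and it had 1 count in initial 1. It was thus high in late full 1 and initial 2 and had at most 6 counts in each of the other 3 deep libraries. Late full 1 was 459-fold over full 1 (95% interval 179 to 1688) and 331-fold over abscission 1 (142 to 1020).

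Transcript c159176_g1_i1 was likewise highest in late full 1 and next highest in initial 2 among the deep libraries. It stood at 0.404 CPM in full 1 (8 counts), 56.5 in late full 1 (1464 counts) and 0.168 in abscission 1 (3 counts), then at 7.11 in initial 2 (278 counts) and 0.156 in full 2 (3 counts), with 1 count in initial 1. Late full 1 was 140-fold over full 1 (95% interval 70.8 to 324) and 7.95-fold over initial 2 (6.99 to 9.07).

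The 14 members with a height of 10-fold or more were mostly low in full 2 as well as in both flanks. Their level in late full 1 was 5.32 CPM at the lowest, 15.1 at the median and 92.8 at the highest. In full 1 these 3 values were 0.0505, 0.354 and 1.31 CPM, in abscission 1 they were 0.0561, 0.337 and 1.40 CPM, and in full 2 they were 0, 0.312 and 3.07 CPM. In initial 2 they were 0.205, 3.96 and 31.4 CPM, and 13 of the 14 were higher there than in full 1 and 12 higher than in full 2. For 9 of the 14, initial 2 was at least 5-fold over each of full 1, abscission 1 and full 2. No other member had this last pattern, which was picked out after the values were seen, and 0.139% of the eligible transcripts had it. Full 1 and abscission 1 had been required to be low, so here only the order of initial 2 and full 2 was not set by the rule. Full 2 was of the same stage as full 1, so that order need not be independent of the rule.

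Compared with those members, the 14 transcripts left out for a count of 0 had lower medians in late full 1, initial 2 and full 2. Their levels in late full 1 ran from 5.29 to 29.6 CPM with a median of 9.30. Of the 14, 11 had no count in either flank, 1 had none in full 1 only and 2 had none in abscission 1 only. In initial 2 their median was 1.18 CPM and the highest 10.8, and in full 2 the median was 0 and the highest 1.46.

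The round 2 libraries took no part in choosing the members. Full 2 against initial 2 asks whether these transcripts were higher at full bloom than at initial bloom in round 2. There was no late full bloom library in round 2, so whether the peak recurred cannot be told. More members were lower than higher in full 2, which was also so for transcripts in general. Over all 105 members the median log2 ratio of full 2 to initial 2 was -0.83, with quartiles of -2.26 and 0.91, and 42 members were higher and 63 lower in full 2. Over the 25500 transcripts with at least 50 counts in the pair the median was -0.41, with quartiles of -1.20 and 0.32, and over the eligible transcripts it was -0.21, with quartiles of -0.79 and 0.39. A median away from 0 depends on how libraries are scaled, and against the median of the 25500 transcripts 46 members were higher and 59 lower. The difference from other transcripts also rests on the 3-fold rule: with a membership fold of 2, the 249 transcripts then chosen had a median of -0.23, above that of the 25500.

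The spread of the members was the wider one in both directions. A transcript was called when its levels in full 2 and initial 2 were 2-fold or more apart and the pair held 50 counts or more. Of 95 members with that many counts, 20 (21.1%) were called higher in full 2, against 12.8% of all such transcripts, and 48 (50.5%) were called lower, against 31.0%. The remaining 27 differed less than 2-fold. At 4-fold, 10 members (10.5%) were higher, against 5.95% of all, and 29 (30.5%) lower, against 12.4%. The minimum count favours transcripts that are high in 1 of the 2 libraries. With no minimum, all 105 members counted, and 26 (24.8%) were at least 2-fold higher and 50 (47.6%) at least 2-fold lower, against 12.6% and 18.6% of the eligible transcripts. Over all transcripts with a count in the pair, many of them on few counts, these shares were 29.9% and 42.3%. The median member of this set had fewer counts than the median eligible transcript, at 3.09 against 26.4 CPM in initial 2 and 1.87 against 23.4 CPM in full 2, and the part of this in the wider spread was not tested.

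The 10 members with fewer than 50 counts in the pair had 10 to 42 counts there. None was over 1.56 CPM in either round 2 library, while their late full 1 levels had a median of 5.96 CPM and reached 19.2 CPM. Of these 10, 7 were higher and 3 lower in full 2.

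**Figure D2:**
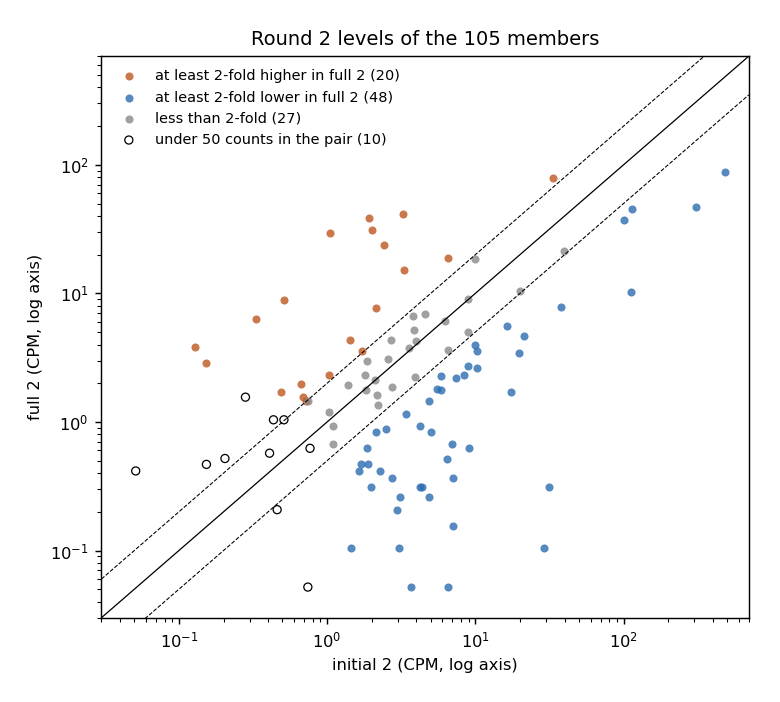
Each point is 1 of the 105 members, with CPM in initial 2 on the horizontal log axis and in full 2 on the vertical log axis; the solid line marks equal levels, dashed lines 2-fold differences, and the 2 members without a count in full 2 are drawn at the level of 1 count. The 48 members called lower lie below the dashed band and include the most abundant members, while the 20 called higher lie above it.

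The 20 members called higher in full 2 had a median of 1.24 CPM in initial 2 and 7.04 CPM in full 2, and stood at 3.61, 20.6 and 4.43 CPM in full 1, late full 1 and abscission 1. Full 2 was within 3-fold of late full 1, or above it, for 12 of the 20. The 48 members called lower had a median of 6.16 CPM in initial 2 and 0.832 CPM in full 2, and stood at 2.37, 13.4 and 1.51 CPM in the 3 round 1 libraries. None of the 48 came within 3-fold of late full 1 in full 2. The median height of the peak was 4.11-fold in the members called higher and 4.63-fold in those called lower. None of the former and 10 of the latter had a height of 10-fold or more.

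The largest ratio of full 2 to initial 2, among members with at least 200 counts in the higher round 2 library, was that of c135461_g1_i1. It stood at 10.3 CPM in full 1 (203 counts), 67.3 in late full 1 (1743 counts) and 20.1 in abscission 1 (359 counts), with no count in initial 1. In round 2 it had 1.05 CPM in initial 2 (41 counts) and 29.3 CPM in full 2 (563 counts). Full 2 was 27.9-fold over initial 2 (95% interval 20.3 to 39.3), and late full 1 was 2.30-fold over full 2 (2.09 to 2.53).

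Next was c144095_g1_i1, whose full 2 level was 20.1-fold over initial 2 (95% interval 15.8 to 25.9). Its levels were 26.4 CPM in full 1 (522 counts), 84.5 in late full 1 (2190 counts), 15.9 in abscission 1 (283 counts), 1.92 in initial 2 (75 counts) and 38.6 in full 2 (742 counts). It too had no count in initial 1, where 3 counts would be 27.9 CPM, so its level there was not determined. Both transcripts had their 2 highest deep-library values in late full 1 and full 2 and their lowest in initial 2.

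These 2 belonged to a set of 9 members that were 8-fold or more higher in full 2, on 50 counts or more in the pair (9.47% of the 95, against 2.59% of all transcripts with that many counts). In the 9, initial 2 was low, at 0.128 to 3.27 CPM, and full 2 was 2.86 to 41.2 CPM. Their late full 1 levels were 8.22 to 84.5 CPM with a median of 56.4. Their peaks were of ordinary height, 3.01-fold to 7.03-fold, and abscission 1 was the higher flank in 7 of the 9.

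At the other end, under the same limit of 200 counts, were c150342_g1_i1 and c131744_g1_i1. Transcript c150342_g1_i1 had 255 counts in initial 2 (6.52 CPM) and none in full 2. Initial 2 was 41.8-fold higher when 3 counts were taken as the floor in full 2. The lower bound of the exact 95% interval was 33.8-fold. There was 1 count each in full 1 and abscission 1, against 168 counts in late full 1 (6.48 CPM), a ratio of late full 1 to initial 2 of 0.994 (95% interval 0.814 to 1.21). It was thus level between late full 1 and initial 2 and at or under 1 count in the other 3 deep libraries.

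Transcript c131744_g1_i1 had 1144 counts in initial 2 (29.2 CPM) and 2 in full 2 (0.104 CPM), a ratio of 281 (95% interval 77.7 to 2326). In round 1 it stood at 6.87 CPM in full 1 (136 counts), 59.8 in late full 1 (1551 counts) and 1.01 in abscission 1 (18 counts). It also had 14 counts in initial 1, or 130 CPM, which was 19.0-fold over full 1 (95% interval 10.1 to 32.9). By CPM on total counts, initial 1 was thus its highest library, on 14 counts, and late full 1 its highest deep library. No interval is given for initial 1 against late full 1. TMM factors of 1.51 in initial 1 and 0.912 in late full 1 would bring these 2 levels closer.

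**Figure D3:**
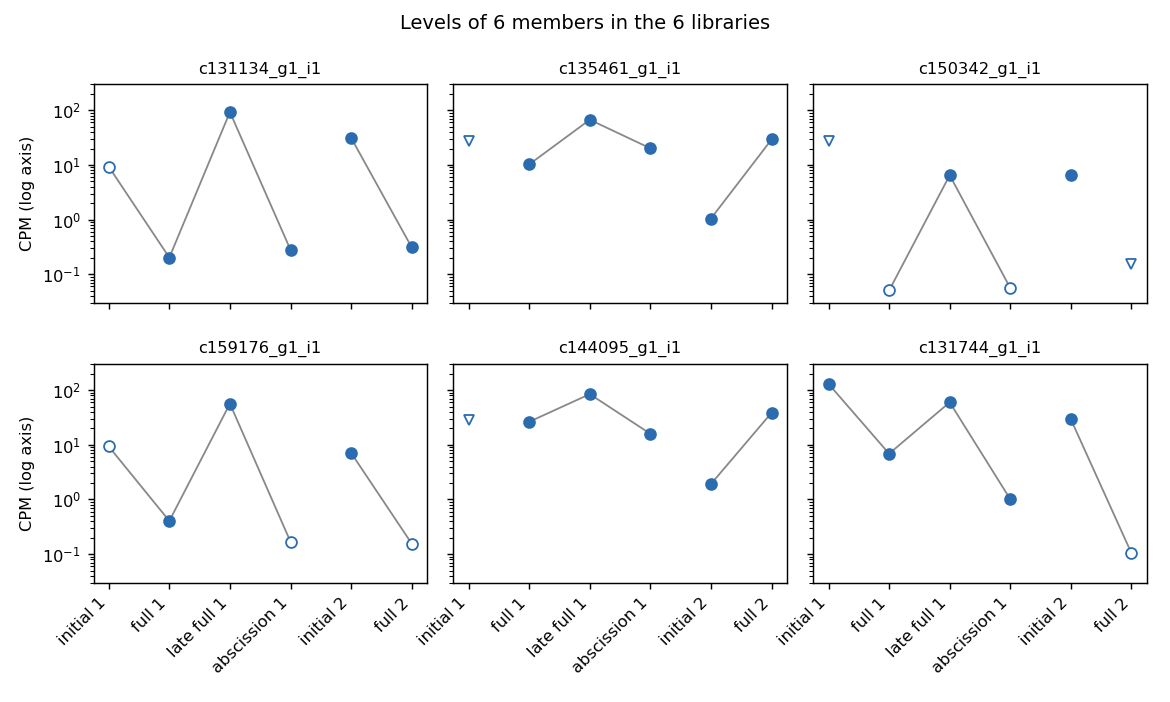
CPM on a log axis in the 6 libraries for the 6 named members, with round 1 and round 2 joined separately; open circles rest on 3 counts or fewer, and open triangles mark the level of 3 counts in a library with no count. The left and right columns are high in late full 1 and initial 2 and low in full 2, while the middle column is low in initial 2 and higher in full 2.

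At least 8-fold lower in full 2 were 18 members (18.9% of the 95, against 5.2% of all transcripts with enough counts). Their initial 2 levels were 1.46 to 113 CPM and their full 2 levels 0 to 10.2 CPM. Their peaks were sharper than those of the members that were 8-fold higher, with a median height of 12.1-fold and a range of 3.04-fold to 331-fold, and abscission 1 was the higher flank in 5 of the 18. The difference in height was not tested, since members are not replicates.

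The ratio in round 2 went with the height of the peak and with its higher flank. The median log2 ratio of full 2 to initial 2 was -0.02 for the 67 members with a height under 5-fold, -1.46 for the 24 from 5-fold to under 10-fold, and -3.48 for the 14 at 10-fold or more. In the last class none of 11 members with 50 counts in the pair was called higher and 10 were called lower. Of all 14 in that class, 2 were higher in full 2 by some amount. Over all transcripts with that many counts, 12.8% were called higher and 31.0% lower. Across the 105 members, log2 height and the log2 ratio of full 2 to initial 2 correlated at r = -0.49 (Pearson) and rho = -0.32 (Spearman). The 2 quantities share no library, but transcripts of 1 library are not independent of each other. Full 1, which enters the height, and full 2, which enters the ratio, were also of the same stage. The part of this in the correlation was not tested. No such correlation is given for the eligible transcripts, so it is not shown to be particular to the members.

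With flanks compared by CPM on total counts only, members with full 1 as the higher flank had a median log2 ratio of -1.46 in round 2. Those with abscission 1 as the higher flank had 0.65. Of the former, 61 had enough counts in the pair for a call, with 6 called higher and 36 lower. Of the latter, 34 had enough, with 14 called higher and 12 lower. Among eligible transcripts with enough counts, 524 of 9784 with full 1 higher were called higher and 2289 lower. With abscission 1 higher, 1191 of 3876 were called higher and 253 lower. In both classes, larger shares of the members than of the eligible transcripts were called higher, and also lower. The medians of eligible transcripts had the same order, at -0.42 for 9794 that were higher in full 1 and 0.42 for the other 3891. The correlation of log2 full 1 over abscission 1 with log2 full 2 over initial 2 was likewise -0.42 by Pearson and -0.40 by Spearman in the members, and -0.52 and -0.47 in the eligible transcripts. Within the members with a height of 10-fold or more, the median was -3.52 for the 6 with full 1 higher and -3.08 for the 8 with abscission 1 higher.

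**Figure D4:**
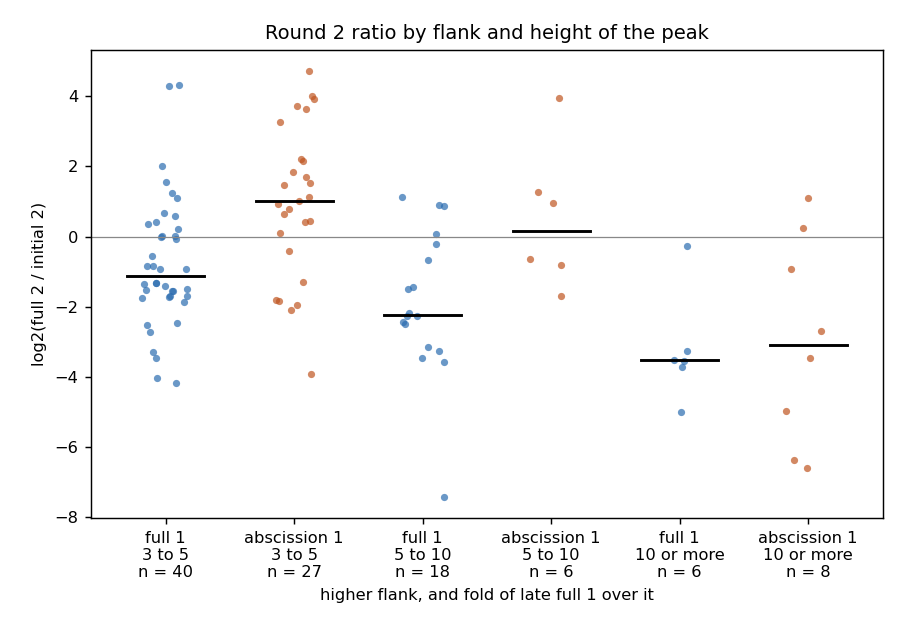
The log2 ratio of full 2 to initial 2 for each of the 105 members (points), by the higher flank (CPM on total counts) and by the fold of late full 1 over it, with black bars at the class medians. Among members under 5-fold the median is -1.12 where full 1 is higher and 1.02 where abscission 1 is higher, and both classes at 10-fold or more have medians under -3.

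By level, the median log2 ratio was -0.60 for members of 5 to under 10 CPM in late full 1, -0.67 for those of 10 to under 30, and -1.49 for those of 30 or more. The most abundant member stood at 214 CPM in initial 1 (23 counts), 311 in full 1, 961 in late full 1, 58.7 in abscission 1, 484 in initial 2 and 88.1 in full 2. The next stood at 102 (11 counts), 160, 710, 37.6, 307 and 47.0 CPM in the same order. Both were lower in full 2 than in initial 2, by 5.49-fold and 6.53-fold. Of the 20 most abundant members, 12 were at least 2-fold lower and 7 at least 2-fold higher in full 2. Over all transcripts with at least 50 counts in the pair, these shares were 31.0% lower and 12.8% higher.

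Against late full 1, the round 2 levels were mostly low. The median member stood in initial 2 at 28.2% and in full 2 at 17.1% of its late full 1 level, where the eligible transcripts had medians of 110% and 98.5%. Late full 1 was picked to be high, so lower values elsewhere follow in part from the rule. Late full 1 was the highest of the 5 deep libraries for 103 members, initial 2 for 1 and full 2 for 1. The next highest deep library was initial 2 for 57 members, full 2 for 28, abscission 1 for 11 and full 1 for 9, counting the round 2 library itself for the 2 exceptions.

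Late full 1 was more than 3-fold over every other deep library for 50 members, 7 of which were under 1 CPM in both round 2 libraries. For the other 55, a round 2 library came within 3-fold of late full 1. This was initial 2 alone for 35 members, full 2 alone for 12, and both for 8.

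**Figure D5:**
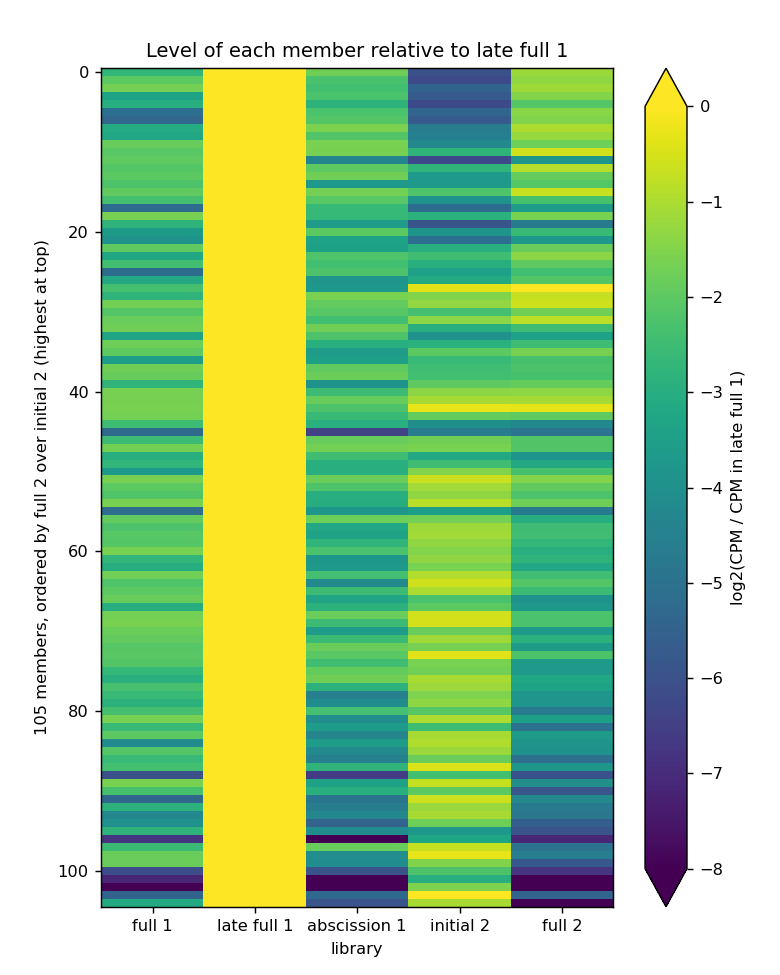
Colour gives log2 of CPM over CPM in late full 1 for the 105 members (rows, ordered by the ratio of full 2 to initial 2) in the 5 deep libraries (columns), with values under 3 counts drawn at 3 counts and both ends of the colour scale cut. At the top full 2 is bright and initial 2 dark. Toward the bottom full 2 is dark and initial 2 brighter than it, while full 1 and abscission 1 vary from row to row.

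Summed over the members, counts made up 0.485% of late full 1 (95% interval 0.482 to 0.488). They made up 0.103% of full 1, 0.0500% of abscission 1, 0.169% of initial 2 and 0.0749% of full 2. The sum in full 2 was 0.443 times that in initial 2 (95% interval 0.435 to 0.451). The 2 most abundant members held 34.5% of the sum in late full 1 and 46.9% in initial 2, and without them the ratio was 0.684 (0.670 to 0.698). With edgeR's TMM scaling in place of total counts these ratios were 0.566 and 0.873.

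Initial 1 was too shallow to place most members. It held 89 counts over the 105 members, with none for 74 of them and more than 3 for 4, and the 3 highest members held 53.9% of the 89. The sum was 0.0828% of the library (95% interval 0.0665 to 0.102). This was 828 CPM (665 to 1019), next to 1033 CPM in full 1 and 1689 CPM in initial 2.

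The IDs group transcripts into assembly components, and near copies in a component can share reads. Among the members, 6 shared a component with another member, in 3 pairs. In each pair both members were lower in full 2 than in initial 2, by ratios of 0.158 and 0.0701, 0.293 and 0.304, and 0.298 and 0.394. For 54 members another transcript of the component reached at least 1 CPM in a deep library. Of the 119 such partners that were not members, 63 were eligible transcripts, and their median ratio of late full 1 to the higher flank was 0.882. Of the 63, 26 (41.3%) were higher in late full 1 than in both flanks, against 21.5% of the eligible transcripts, and 6 (9.52%) were at least 2-fold higher, against 1.82%. The other 56 partners did not meet the level or count requirements and were not assessed. How reads were divided between partners is not given in the sources used here.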

How the data were processed

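Petal messenger RNA of 6 libraries was sequenced, each pooling 5 replicates, per the series' design text. Per the labels' protocols, TRIzol extraction and poly-T bead selection preceded Illumina sequencing. The submitters' processing notes name CASAVA 1.7. Assembler, aligner and counter: not given in the sources used here. The authors deposited estimated counts (expected counts) for 96596 transcripts assembled de novo, with no scaling, read from values that were whole except for 36 to 855 in a column. All columns matched a sample.

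CPM used column totals, as the membership rule states, on unrounded values. Scaling alternatives came from edgeR 4.0.16 (TMM) and DESeq2 1.42.0 (size factors) in R 4.3.3, over transcripts with at least 1 CPM in a library, after rounding. Log2 ratios used a prior count of 2 scaled to library size. Intervals are exact 95% Clopper-Pearson. In folds of named members a count of 0 was replaced by a floor of 3 counts, and figures draw such counts as their captions state. Calls kept a count of 0 as it was. The other steps ran in Python 3.11.15 (SciPy 1.17.1, pandas 2.3.3, matplotlib 3.10.9, NumPy 2.4.6) and were checked on simulated counts. Named members needed 200 counts in the higher library: the 2 sharpest peaks, and the 2 highest and 2 lowest ratios of full 2 to initial 2. IDs without gene names allowed no gene lists. The members, classes and comparisons were chosen with earlier results of these data known.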

Additional observations from a re-analysis of the deposited data

Results flagged for a closer look

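The summed level of the members differed in direction between the rounds. Full bloom over the initial stage was 1.25 in round 1 (95% interval 1.01 to 1.55) and 0.443 in round 2 (0.435 to 0.451). It was marked because both intervals lie off 1 and on opposite sides. The difference was not tested, since each stage was 1 library. Without the 2 most abundant members the round 1 value was 1.10 (0.842 to 1.46) and the round 2 value 0.684, so the round 1 direction was then not determined. With TMM scaling the values were 1.79 and 0.566. Full 1 was one of the libraries that chose the members, and initial 1 held 89 of their counts.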

How the results depend on the processing

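In all 17 settings with both counts, the reported one included, more members were lower than higher in full 2, but the same held for all transcripts. The share of members called lower exceeded that of all transcripts in the 17, and the share called higher in 16, the exception being no minimum count in the pair. The members' median log2 ratio was under that of all transcripts in 11 of 12 settings. A membership fold of 2 gave 249 members, 61 higher, 78 lower, a median ratio of -0.23 and a median log2 height of 1.47. There 32.9% were lower, against 31.0% of all transcripts, and the median lay above the -0.41 of all; a fold of 4 gave 62 members, 11 higher, a ratio of -1.34 and a height of 2.53. A minimum of 10 CPM gave 57 members, 13 higher and 27 lower, and 1 CPM gave 387 members, 100 lower and a ratio of -1.18. Calls at 3-fold gave 13 higher, at 4-fold 10 higher and 29 lower, and a pair minimum of 200 counts gave 9 higher and 29 lower. In the ratios alone, TMM scaling gave a median of -0.48 and DESeq2 size factors -0.43, while the median of all transcripts with enough counts went from -0.41 to -0.06 and -0.01. With TMM in the membership too, 110 members were found, 84 of them among the 105, and their shares were 0.108% of full 1, 0.481% of late full 1, 0.0436% of abscission 1, 0.180% of initial 2 and 0.0722% of full 2. Changes with membership or thresholds follow from the sets counted; for the other settings the cause was not tested. The pair with no minimum count was added after seeing the data. No paired analysis was possible because each stage is 1 library. No library could be left out for the same reason, and single transcripts in initial 1 are limited by its depth.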
